A study of Mus musculus with 2 samples.

Results

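Monocyte identity and macrophage maturation were followed through 32 genes in inflammatory monocytes of the inflamed colon. The genes were taken from a fixed list, of which 13 mark Ly6C-high monocytes and 19 mark mature macrophages, among 22184 genes with a probe set annotated to a single symbol. The cells were sorted from the colon lamina propria of C57BL/6 mice, either WT or Nlrp6-/-. Nlrp6 encodes a NOD-like receptor that can assemble an inflammasome. Mice of both genotypes were injected with 10 mg/kg of the carcinogen azoxymethane (AOM), were given 2% dextran sodium sulfate (DSS), which damages the colon epithelium, for 5 days from day 5, and were sampled on day 10. The gate kept CD11b+ Ly6C-hi cells and left out cells carrying CD3, a T cell marker, or Ly6G, a neutrophil marker. RNA of each genotype was hybridised to 1 Affymetrix Mouse Gene 2.1 ST array. How many mice gave each RNA, their age and sex, and how the Nlrp6 allele was made are not given in the sources used here. With 1 array per genotype there is no replicate, no error and no test, and each difference compares these 2 arrays only.

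Ly6C-high monocytes leave the bone marrow through the chemokine receptor CCR2, enter the gut wall and lose Ly6C as they mature into resident macrophages. During this maturation they gain the receptor CX3CR1, the surface protein F4/80 (Adgre1), complement C1q and receptors for uptake of debris. In colitis many of these cells stop at an early, inflammatory stage, so both groups of genes are commonly read side by side. The labels do not state that the study asked about maturation; the comparison here is of WT with Nlrp6-/- cells.

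Ly6c1 and Ly6c2 encode closely related surface proteins, both called Ly6C, and lie next to each other on chromosome 15 with no protein-coding gene between them. Their upstream sequences are shown because the 2 genes gave opposite detection results in the same cells. Each is the 250 bases before the most upstream start of the RefSeq promoter table (build GRCm38.p6), written 5′ to 3′ on the minus strand, for Ly6c2 at chr15:75111972-75112221 and for Ly6c1 at chr15:75048838-75049087. Capitals mark GAGGAA, a core of sites for the myeloid factor PU.1, searched on both strands.
Ly6c2: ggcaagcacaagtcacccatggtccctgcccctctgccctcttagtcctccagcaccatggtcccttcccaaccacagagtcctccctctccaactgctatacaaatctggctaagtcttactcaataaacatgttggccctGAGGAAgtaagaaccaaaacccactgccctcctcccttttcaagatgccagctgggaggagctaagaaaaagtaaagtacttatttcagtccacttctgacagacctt
Ly6c1: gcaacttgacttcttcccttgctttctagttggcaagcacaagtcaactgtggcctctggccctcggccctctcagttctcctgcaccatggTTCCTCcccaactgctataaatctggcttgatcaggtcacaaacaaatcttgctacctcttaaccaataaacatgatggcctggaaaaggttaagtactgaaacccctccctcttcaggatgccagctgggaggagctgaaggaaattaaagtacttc
Aligned end to end, 164 of 216 paired bases were identical, or 75.9%. Each window held 1 match. Of the 32851 promoter windows in that table, cut to the same 250 bases, 23.3% held at least 1. A match describes the letters only.

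Levels are log2 values from robust multiarray average (RMA), the authors' normalization. The detection floor was the 95th percentile of olfactory and vomeronasal receptor probe sets, which colon monocytes are not known to use. It lay at 3.26 in WT and 3.22 in Nlrp6-/-. A gene was called measured if it exceeded the floor on at least 1 array. Of the 32 genes, 26 were measured, each on both arrays, and 6 were below both floors. Nlrp6 was also below both floors, at 2.32 in WT and 2.67 in Nlrp6-/-, so it gives no check of the genotype labels. Over all probe sets the median level was 2.87 in WT and 2.84 in Nlrp6-/-.

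Neither group of genes differed widely between the genotypes. Of 12 measured monocyte genes, 0 stood 1.5-fold or more above WT and 0 stood 1.5-fold or more below it. Of 14 measured macrophage genes, 1 (Cd63) reached 1.5-fold above WT and 0 below it. Among all 9537 measured genes, 6.21% reached 1.5-fold above WT and 3.05% reached it below, so the members' counts are near that background. At 2-fold, 0 of the 26 passed in either direction, against 1.61% of all measured genes higher and 0.325% lower. The median difference, Nlrp6-/- minus WT on the log2 scale, was -0.09 for the monocyte genes and 0.02 for the macrophage genes, against 0.01 for all measured genes. The median absolute difference was 0.20 for the monocyte genes and 0.16 for the macrophage genes, against 0.22 for all measured genes. Signs were mixed: 5 monocyte genes were higher and 7 lower in Nlrp6-/-, and the macrophage genes divided 7 and 7. Fewer cells of a type and less RNA per cell cannot be told apart in such bulk samples.

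**Figure D1:**
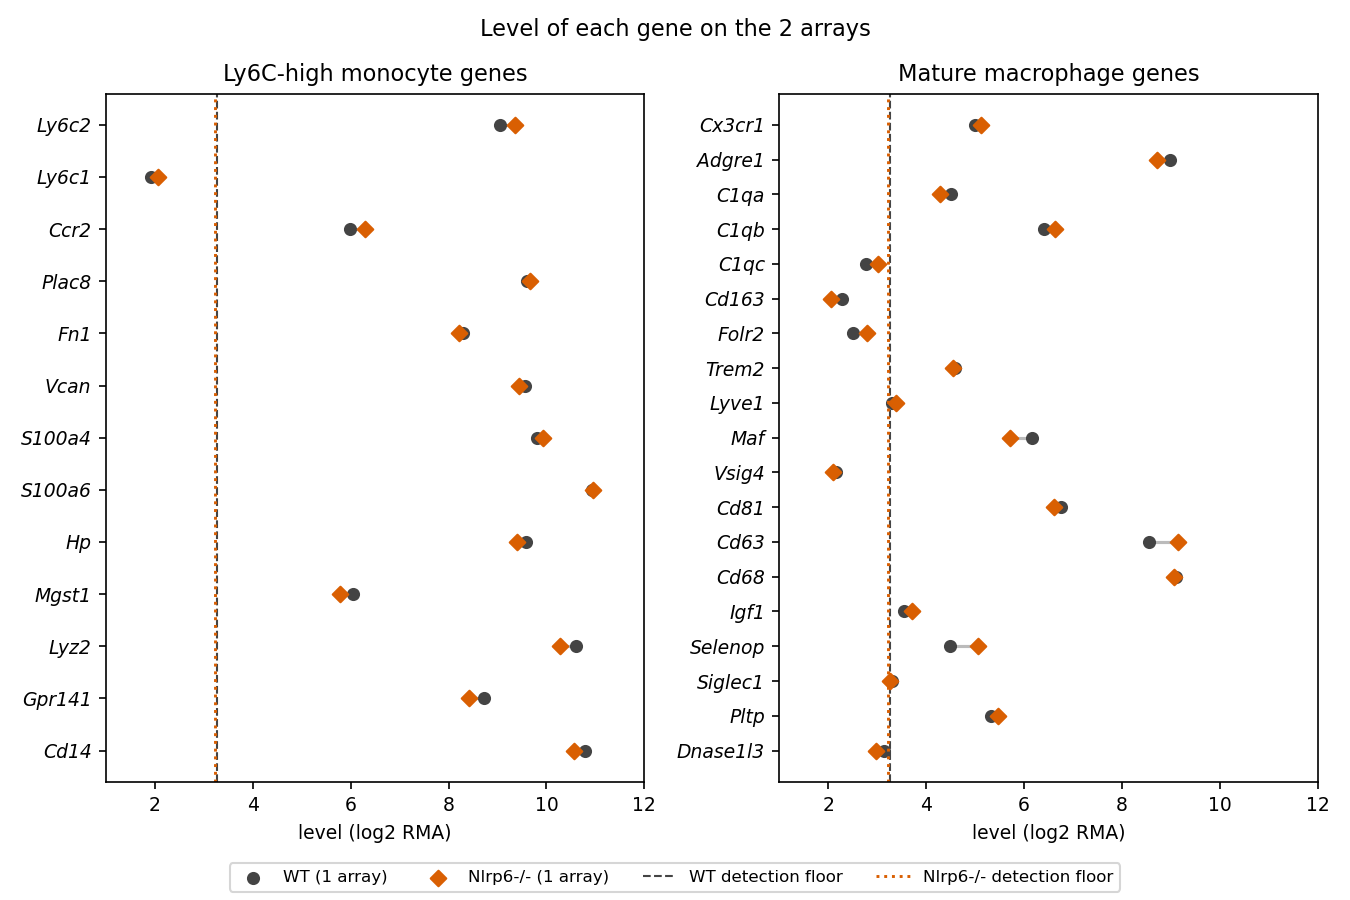
Log2 RMA level of each gene in WT (circles) and Nlrp6-/- (diamonds), 1 array each, with the detection floor of each array as a vertical line. The pairs of points nearly coincide for most genes; Cd63, Selenop and Maf show the widest gaps, and Ly6c1, C1qc, Cd163, Folr2, Vsig4 and Dnase1l3 lie left of both floors.

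The sorted antigen and the homing receptor of monocytes were both somewhat higher in Nlrp6-/-. Ly6c2 was at 9.06 in WT against 9.36 in Nlrp6-/-, a log2 difference of 0.31. Ccr2, the receptor for the chemokine CCL2, was at 5.98 and 6.30, a difference of 0.32. These were the highest differences of the 12 measured monocyte genes, and both stayed under 1.5-fold, a log2 difference of 0.58. Of all measured genes, 35.9% had an absolute difference as large as that of Ly6c2 and 34.1% as large as that of Ccr2. The gate selected cells on Ly6C protein, so Ly6c2 is among the values that the sort itself can set. Ly6c1, which endothelial and some lymphoid cells also express, was at 1.91 in WT and 2.05 in Nlrp6-/-, below both floors. Of 14 endothelial markers 5 were above the floors on both arrays, and the others with a probe set, among them Tek at 2.04 and 2.02 and Vwf at 2.62 and 2.58, were below both. Since Ly6c1 and Ly6c2 are similar in sequence and the probe sequences were not used here, how far each probe set separates them is unknown.

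Lyz2, Gpr141, Mgst1 and Cd14 had the 4 lowest differences of the monocyte genes. Cd14, the co-receptor for bacterial lipopolysaccharide, was at 10.78 in WT against 10.56 in Nlrp6-/-, a difference of -0.22. Lyz2, the lysozyme of myeloid cells, was at 10.60 and 10.27, a difference of -0.33, the lowest of the monocyte genes. Gpr141, an orphan G protein-coupled receptor, was at 8.73 and 8.41, a difference of -0.32. A second probe set, annotated to Gpr141 together with Srsf10, was below both floors at 2.48 and 2.60 and was not used. Mgst1, a membrane-bound glutathione transferase, was at 6.05 and 5.78, a difference of -0.27. Each was lower in Nlrp6-/- by less than 1.5-fold, and from 32.6% (Lyz2) to 49.6% (Cd14) of all measured genes had an absolute difference as large.

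The other 6 measured monocyte genes differed less. Hp, encoding haptoglobin, which binds free haemoglobin, was at 9.57 in WT and 9.40 in Nlrp6-/-. Vcan, the proteoglycan versican, was at 9.55 and 9.44. Fn1, fibronectin, was at 8.29 and 8.21. Their differences ranged from -0.17 for Hp to -0.08 for Fn1. The calcium-binding proteins S100a4, at 9.81 and 9.92, and S100a6, at 10.93 and 10.96, differed little between the arrays, as did Plac8, a small cysteine-rich protein of myeloid cells, at 9.60 and 9.66. S100a4 and S100a6 are near neighbours on chromosome 3, with 1 protein-coding gene between them.

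**Figure D2:**
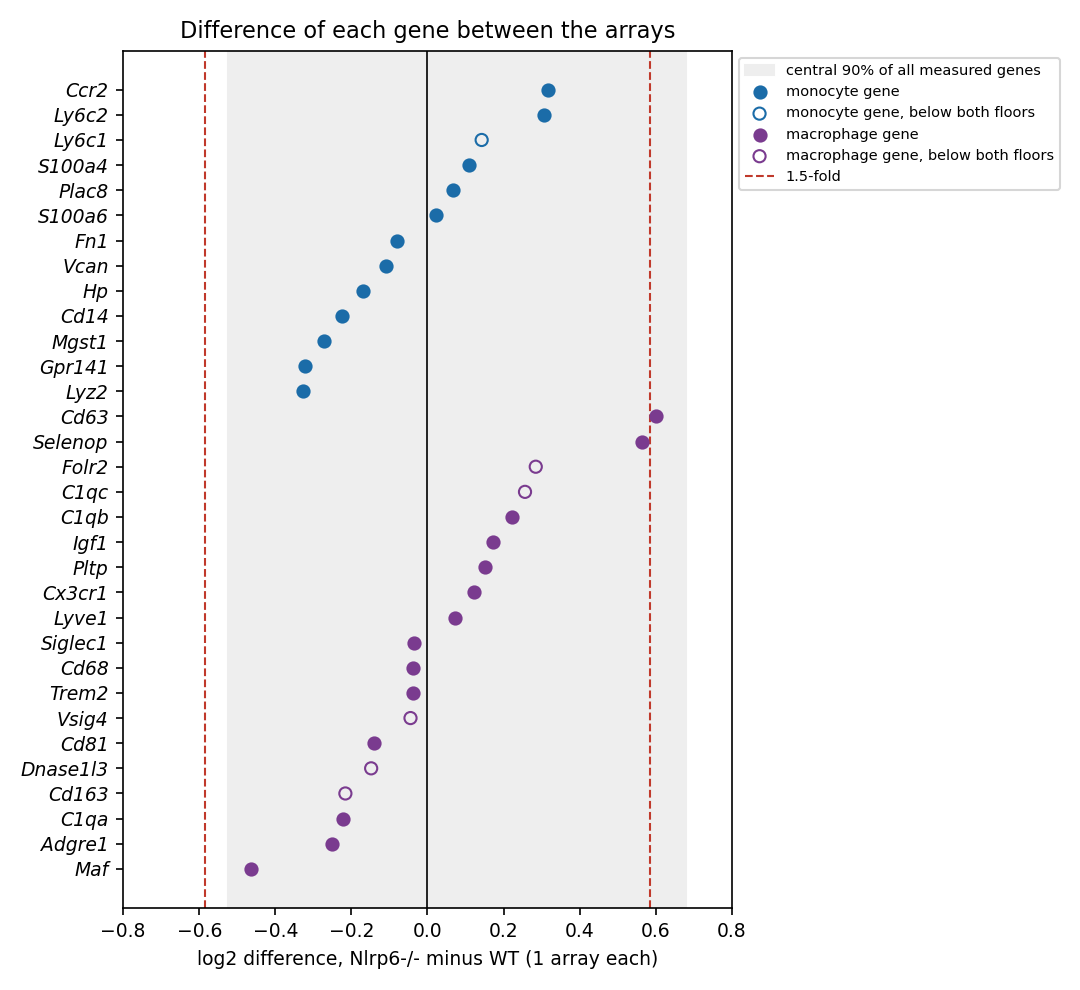
Log2 difference of each gene, Nlrp6-/- minus WT, ordered within the monocyte (blue) and macrophage (purple) groups; open circles are genes below both floors, dashed lines mark 1.5-fold and the grey band holds the central 90% of all measured genes. Cd63 at 0.60 is the only point beyond a dashed line, and the filled points lie inside the band.

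Cx3cr1, Adgre1 and the C1q genes, all gained during maturation, showed no common direction. Cx3cr1, the fractalkine receptor that gut macrophages acquire, was at 5.00 in WT against 5.12 in Nlrp6-/-, a difference of 0.12. Adgre1, which encodes F4/80, was at 8.97 and 8.72, a difference of -0.25. The complement genes C1qa, C1qb and C1qc encode the 3 chains of C1q and are adjacent on chromosome 4. C1qa was at 4.51 in WT against 4.28 in Nlrp6-/-, a difference of -0.22, while C1qb was at 6.41 and 6.63, a difference of 0.22. C1qc was below both floors, at 2.76 and 3.02. The 2 measured chains thus differed by similar amounts in opposite directions.

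Of the receptors of resident macrophages in the list, Cd163, Folr2 and Vsig4 were below both floors, Lyve1 and Siglec1 were just above them, and Trem2 was further above. Cd163, the haemoglobin-haptoglobin receptor, was at 2.27 in WT and 2.06 in Nlrp6-/-. Folr2, folate receptor beta, was at 2.51 and 2.80. Vsig4, a receptor for complement fragments, was at 2.15 and 2.10. The hyaluronan receptor Lyve1, at 3.31 and 3.38, and the sialic acid receptor Siglec1, at 3.30 and 3.27, were above their floors by less than 0.2. Trem2, a lipid-sensing receptor, was at 4.59 and 4.55, a difference of -0.04. With a floor at the 99th percentile (5.08 in WT, 4.89 in Nlrp6-/-), Lyve1, Siglec1, Trem2, C1qa and Igf1 would be below both floors. Then 9 macrophage genes would be measured, Cx3cr1 and Selenop among them on the Nlrp6-/- array only.

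Maf, a transcription factor of resident macrophages, had the lowest difference of the 26 measured genes. Its brighter probe set was at 6.17 in WT against 5.71 in Nlrp6-/-, a difference of -0.46, or 1.38-fold higher in WT. Its second probe set was at 4.25 and 4.26, a difference of 0.01. Averaged over both probe sets the difference was -0.23. The 2 probe sets of this gene therefore do not give the same picture. For the 422 genes that had more than 1 probe set over both floors, the median disagreement between probe sets was 0.31 and the 90th percentile 0.79, and 20 of the 26 measured genes differed between genotypes by less than 0.31.

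Cd63 had the largest difference of the 26 measured genes. This tetraspanin of late endosomes and secretory vesicles was at 8.55 in WT against 9.15 in Nlrp6-/-, a difference of 0.60 or 1.52-fold. Of all measured genes, 9.62% had an absolute difference as large. Cd68, a lysosomal glycoprotein of macrophages, was at 9.09 and 9.06, and Cd81, another tetraspanin, at 6.75 and 6.61, a difference of -0.14. Neither was higher beside Cd63. Both tetraspanins are made by many cell types.

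Selenop, the selenium carrier selenoprotein P, was at 4.49 in WT against 5.05 in Nlrp6-/-, a difference of 0.56, just under 1.5-fold. An absolute difference as large was seen in 11.5% of measured genes. Igf1, a growth factor made by macrophages and stromal cells, was at 3.54 and 3.71, and Pltp, which transfers phospholipids between lipoproteins, at 5.32 and 5.47. Dnase1l3, a secreted nuclease, was below both floors at 3.13 and 2.98. The differences of Igf1 and Pltp were 0.17 and 0.15.

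**Figure D3:**
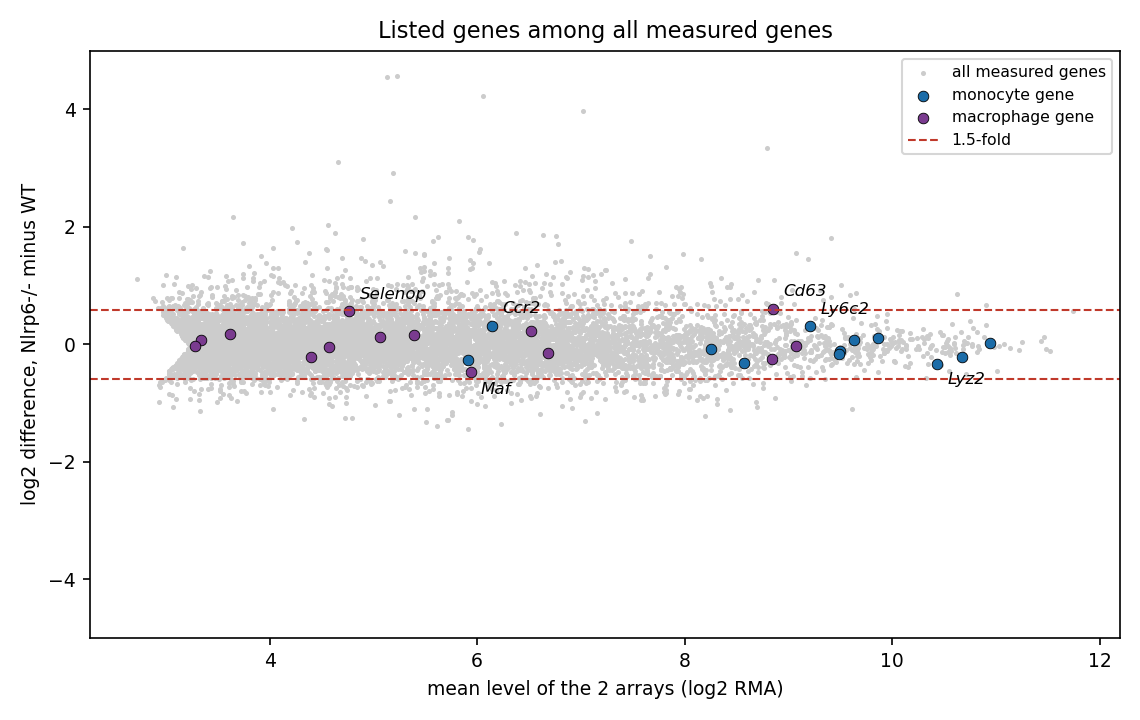
Log2 difference, Nlrp6-/- minus WT, against the mean level of the 2 arrays for the 9537 measured genes (grey), with the measured monocyte (blue) and macrophage (purple) genes and 6 of them named. Dashed lines mark 1.5-fold; the coloured points span the range of levels and lie within the bulk of the grey points.

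Many markers listed for cells outside the gate were higher in Nlrp6-/-, and several such cell types are known to express Cd63 and Selenop. As background for the counts that follow, 6.21% of all measured genes reached 1.5-fold above WT and 3.05% reached it below. Of the measured epithelial, stromal, B and plasma cell and neutrophil markers, 0 reached 1.5-fold below WT. Of 14 measured epithelial markers of 15 listed, 10 were at least 1.5-fold higher, with a median difference of 1.01. Among the 14, Krt19, Zg16 and Vil1 were measured through Nlrp6-/- only. With both floors required, 8 of 11 epithelial markers were at least 1.5-fold higher. The summed linear signal of the 14 was 335 in WT and 766 in Nlrp6-/-. Epcam, the epithelial adhesion molecule, was at 4.71 and 5.74, and Lypd8 at 5.71 and 7.57. Of 12 stromal markers, all measured, 4 were at least 1.5-fold higher, with a median difference of 0.27 and summed signals of 673 and 1271. In all, 9 were higher by any amount and 3 lower. Col1a1 was at 5.19 and 5.23 and Mgp at 7.43 and 8.88. The epithelial markers Cdh1 and Krt18 and the stromal marker Col1a2, each counted as 1.5-fold higher, had a second probe set. Its difference was 0.29 for Cdh1, 0.33 for Krt18 and 0.22 for Col1a2, against 1.47, 1.42 and 1.19 in the brighter sets. With probe sets averaged, 10 epithelial and 4 stromal markers were at least 1.5-fold higher. Of 8 measured B and plasma cell markers of 11 listed, 4 were at least 1.5-fold higher, with summed signals of 1006 and 1702. Tnfrsf17, among the 4, was measured through Nlrp6-/- only, and with both floors required 3 of 7 were that much higher. Mzb1 had the largest difference, at 5.22 and 6.84. Jchain, the brightest, was at 9.22 and 10.09 and gave most of the summed signal. Of 9 measured neutrophil markers of 17 listed, 4 were at least 1.5-fold higher, with summed signals of 845 and 1126; these were Retnlg, at 3.23, below the floor, in WT and 5.21 in Nlrp6-/-, S100a8, at 6.44 in WT with a difference of 1.16, S100a9, at 5.99 and 7.01, and Lcn2, which epithelium also makes, at 6.90 and 7.77. The neutrophil markers Retnlg and Cxcr2 were measured through Nlrp6-/- only, and with both floors required 3 of 7 were at least 1.5-fold higher. Csf3r was at 8.25 and 8.20. S100a8, S100a9 and Csf3r are also expressed by Ly6C-high monocytes, so they do not mark only cells outside the gate. Which cells gave their signal was not tested. Ly6g, whose protein the gate excluded, was at 3.32 and 3.58, just above the floors, and Camp, Ltf, Ngp, Mpo and Elane were below both. The part of these markers in the values of Cd63 and Selenop was not tested.

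Other lineages had fewer measured markers. Of 6 measured T and NK markers of 12 listed, 1 was at least 1.5-fold higher, against 6.21% of all measured genes. It was Gzma, at 2.88, below the floor, in WT and 4.61 in Nlrp6-/-, so it was measured through Nlrp6-/- only. Summed signals were 89.4 and 119, and Cd3e was at 4.21 and 3.98. Of 5 measured dendritic cell markers of 12 listed and 5 measured endothelial markers of 14 listed, 0 reached 1.5-fold in either direction, though 1 dendritic cell marker did with the median difference or a loess curve subtracted. The measured dendritic cell markers were Cd24a, at 8.47 and 9.03, Ccr7, at 8.12 and 7.99, Kit, at 5.84 and 5.82, Cd209a, at 5.55 and 5.11, and Dpp4, at 3.83 and 4.40. A second Cd209a probe set went the other way, at 2.97, below the floor, in WT and 3.58 in Nlrp6-/-. Flt3 and Zbtb46 were below both floors. The measured endothelial markers were Pecam1, at 6.40 and 6.65, Pdpn, also of lymphatic vessels, at 6.29 and 6.66, Kdr, at 4.64 and 4.82, Eng, at 4.51 and 4.98, and Cdh5, at 3.88 and 3.49, while Prox1 and Flt4 of lymphatic vessels were below both floors. Summed signals were 750 in WT and 890 in Nlrp6-/- for dendritic and 225 and 272 for endothelial markers. By the brightest probe set of each, 2 measured dendritic cell markers were higher and 3 lower in Nlrp6-/-. The rise of their sum rests on Cd24a, the marker with the highest level. Of 10 eosinophil and mast cell markers 2 were measured, Prg2 at 4.15 and 5.62 and Ccr3 at 3.32 and 3.88, with summed signals of 27.7 and 63.8, while Siglecf, Epx, Cpa3 and Mcpt4 were below both floors. Prg2 was the single one of these past 1.5-fold.

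Further genes of the monocyte programme included a few that were higher in Nlrp6-/-. Among all measured genes, 6.21% reached 1.5-fold above WT and 3.05% below it. Of 17 measured among 20 listed, 3 reached 1.5-fold above WT and 0 below it, with a median of 0.13. They were F13a1, the coagulation factor subunit (5.38 in WT and 6.44 in Nlrp6-/-), Fcgr1, the high-affinity IgG receptor (7.05 and 7.93), and Ifitm6, an interferon-induced transmembrane family member (5.57 and 6.42). Ms4a4c, a membrane protein of monocytes, followed at 8.56 and 9.13, a difference of 0.57. Itgam, which encodes the sorted antigen CD11b, was at 8.46 and 8.25, and Csf1r, the receptor for the growth factor of monocytes, at 9.40 and 9.28. The RNAs of Itgam and Ly6c2 were thus well above the floors on both arrays, while Ly6c1 was below both.

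Further macrophage genes numbered 29, of which 19 were measured. Of these, 1 reached 1.5-fold above WT and 0 below it, near the 6.21% and 3.05% of all measured genes. The list median was 0.00. The one was Fabp5, a fatty acid-binding protein, at 10.02 in Nlrp6-/- and 1.02 lower in WT. Its 4 probe sets were each higher in Nlrp6-/-, with the dimmest at 5.22 and 6.52, and near-identical copies of this gene could share them. Mrc1, the mannose receptor of mature gut macrophages, was at 5.86 and 5.94. With genes below 1 floor taken at their bound, Gpnmb, a membrane glycoprotein (7.74 and 7.49), had the next largest difference. Ms4a7 (8.10 and 7.87) and the receptor kinase Axl (5.37 and 5.60) followed. Hpgds and Cbr2, above the floor in Nlrp6-/- only, each differed by 0.35, or by 0.07 and 0.20 at their bounds. Mertk, an apoptotic cell receptor, was at 3.30 in WT and 2.79 in Nlrp6-/-, where it was below the floor, and at its bound the difference was -0.08. Timd4 and Stab1, of resident macrophages, were below both floors.

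Genes of Ly6C-low patrolling monocytes, the alternative fate of Ly6C-high cells in blood, spread more widely. Of 15, all measured, 4 reached 1.5-fold above WT and 0 below it, against 6.21% and 3.05% of all measured genes. The median was 0.36, or 0.20 with Pparg at its bound, and the median absolute difference was 0.49. Ceacam1, an adhesion molecule that epithelium also makes, was at 6.43 in WT and 7.72 in Nlrp6-/-, Fabp4, also a gene of endothelium and fat, at 4.99 and 6.18, and Nr4a1, the nuclear receptor that patrolling monocytes require, at 6.16 and 7.31. Eno3, a muscle-type enolase, was at 3.29 and 4.27. In the other direction, Treml4 was at 8.85 and 8.27, a difference of -0.58, and Cd36, a scavenger receptor, at 4.11 and 3.55, a difference of -0.57. The list was not of one direction, and the higher epithelial and stromal markers given above stand beside Ceacam1 and Fabp4; their part was not tested.

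Regulators of monocyte and macrophage development lay near 0. Of 20 measured among 25 listed, 1 reached 1.5-fold above WT and 0 below it. These counts are near the 6.21% and 3.05% of all measured genes. The list median was -0.01. Spi1, which encodes PU.1, was at 7.83 in WT and 7.81 in Nlrp6-/-. Irf8, required for monocyte formation, was at 7.94 and 8.07 in its brighter probe set and at 6.12 and 5.90 in the other. Runx3, a factor of intestinal macrophages, was at 4.87 and 5.56, a difference of 0.68. Egr1, an immediate early factor, was at 5.42 and 5.99, Cebpa, of myeloid progenitors, at 4.74 and 4.28, and Id3, of resident macrophages, at 5.69 and 6.09.

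**Figure D4:**
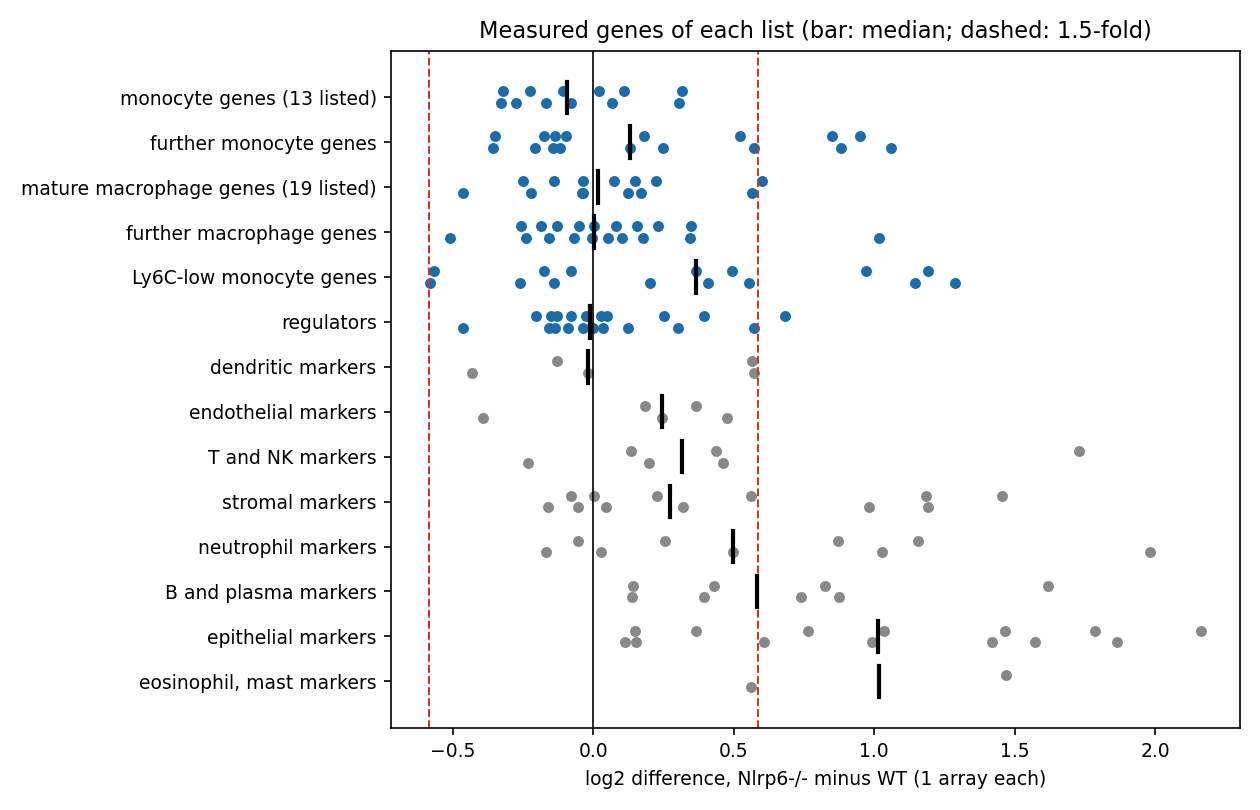
Log2 differences, Nlrp6-/- minus WT, of the measured genes of each list, with the list median as a bar and dashed lines at 1.5-fold. The monocyte and mature macrophage genes sit around 0, with medians of -0.09 and 0.02, while most epithelial markers lie to the right of the upper line.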

How the data were processed

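Per the labels' protocols, RNA was extracted from sorted cells, 10 ng was amplified and biotinylated (fields name both a NuGEN and an Affymetrix kit), and the authors computed expression by RMA with the oligo package in R 2.15.1. The deposited values are on a log2 scale. RMA equalises the arrays' distributions, so a shift of all transcripts cannot be seen, and the set of arrays normalized together is not stated. Of 41345 probe sets, 23525 had 1 gene symbol in the platform annotation, 1810 had several and 16010 had none. The brightest single-symbol probe set stood for a gene. The floor used 1406 receptor probe sets, whose own differences had an SD of 0.19. A gene below 1 floor was counted at its bound against that floor. List medians used measured levels.

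Calculations ran in Python 3.11.15 with statsmodels 0.14.6 and were tested on simulated arrays. The 32 genes and the other lists were chosen with earlier results of these data known. Named were the 32 genes and, from other lists, their defining markers and up to 4 members with the largest differences. Named outside this rule, after their values were seen, were Csf1r, Mrc1, Timd4, Stab1, Treml4, Cd36, Irf8, Csf3r, Cxcr2, Cdh1, Krt18, Krt19, Vil1, Hpgds and Cbr2. So were the measured dendritic cell and endothelial markers and the markers given as below the floors. Alternatives were other floors, 3 normalizations (median centring, quantile, loess with span 0.3), the mean of probe sets and a 2-fold threshold. The number of arrays limits the precision.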

Additional observations from a re-analysis of the deposited data

Results flagged for a closer look

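Probe sets annotated to several symbols were left out of the comparisons. Of 23 that include a listed gene, 18 were above a floor on at least 1 array, 4 reached 1.5-fold above WT, and 1, shared by Zeb2 and Mir5129, reached it below, at -0.60. The 4 have identical values on both arrays, so they count as 1 measurement. They belong to 9 probe sets shared by the Ccl21 chemokine genes and predicted copies, which lymphatic endothelium and lymphoid stroma express. The differences of the 9 ranged from 0.34 to 0.66, with WT levels of 5.33 to 5.94 and Nlrp6-/- levels of 5.90 to 6.40. The signal lay outside the named genes and above the WT level, which is why it is listed here.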

How the results depend on the processing

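The 26 measured genes kept the sign of their difference with the median difference subtracted, renewed quantile normalization, a loess curve subtracted and probe sets averaged per gene, which are the alternatives able to move a value. Of these genes 1, Maf, moved by more than the receptor SD of 0.19, to -0.23 when its probe sets were averaged. Cd63 ranged from 0.59 with renewed quantile normalization to 0.62 with the median difference subtracted, and at a 2-fold threshold 0 macrophage genes were higher. The macrophage median of 0.02 was -0.04 with no floor and 0.12 at a 99th-percentile floor, where 9 genes were measured. Cx3cr1 and Selenop passed that floor in Nlrp6-/- only, where they were higher, and 0.12 is the difference of Cx3cr1. The rise of the median therefore rests on the filter. That floor also gave 329 higher and 189 lower among all genes, because 4954 were compared, a median of -0.10 for the further monocyte genes and 0 higher regulators. With the median difference subtracted, 2 regulators were higher, and with renewed quantile normalization 1 patrolling gene was lower. At 2-fold, 154 genes were higher and 31 lower, with 1 further monocyte gene and 0 regulators higher. Of 161 values of the lists without the markers, 150 stayed within 1.5 times (counts) or 0.19 (medians). Marker lists moved more. At the 99th-percentile floor, 5 epithelial (median 1.44), 2 B and plasma, 0 T and NK and 0 eosinophil and mast cell markers were higher, and medians were 0.98 (stromal), 0.87 (neutrophil) and 1.47 (eosinophil and mast, 1 gene). With no floor the neutrophil median was 0.05 and the eosinophil and mast cell median -0.01. With both floors required the neutrophil median was 0.26 and 0 T and NK markers were higher. With the median difference or a loess curve subtracted 1 dendritic cell marker was higher, and at 2-fold 1 B and plasma marker. No paired analysis was possible because each genotype has 1 array. Low signal over background limits Lyve1, Siglec1 and Igf1, and 6 of the 32 genes have no usable level.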

Other observations

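A pair of probe sets that the annotation shares between Zeb2, a transcription factor of macrophage identity, and another transcript were singled out after their values were seen. The set shared with Mir5129 was at 8.60 in WT and differed by -0.60, and the set shared with Zeb2os was at 7.13 against 6.96, or -0.17. Which transcript each reports cannot be told apart. A probe set shared by Cd74, the MHC class II invariant chain, and Mir5107 was at 10.41 on both arrays.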
